A study of Mus musculus with 4 samples.

Results

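The genes described here write, erase and read DNA methylation in mouse embryonic stem cells: the methyltransferase genes Dnmt1, Dnmt3a and Dnmt3b, their partners Uhrf1 and Dnmt3l, the dioxygenase genes Tet1, Tet2 and Tet3, and the methyl-CpG binding domain genes Mbd2 and Mbd3. They were chosen by symbol in the GENCODE vM21 annotation, and all 10 were found among the 55421 gene identifiers of the count table and passed the filter on low counts that left 14427 genes to test. Transcripts were counted in 4 libraries of E14 cells, a line from a 129/Ola blastocyst, grown on gelatin in medium with serum and LIF. KO cells carry a deletion of the miR-290 to miR-295 microRNA cluster (n = 2 libraries) and WT cells do not (n = 2 libraries). The series describes duplicates as biological but does not state if the KO pair represents 1 clone or more, so each p-value covers only variation among these 4 libraries, part of which may be technical.

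Methylation of cytosine in CpG is set by DNMT3A and DNMT3B, which act on unmethylated DNA together with DNMT3L, a relative that has no catalytic activity of its own and stimulates them. DNMT1 copies the pattern to the new strand after replication, and UHRF1 brings it to hemimethylated sites. TET enzymes oxidise the methyl group, which leads to its removal, and MBD2 reads methylated CpG within the NuRD chromatin complex, where MBD3 takes its place in other copies of the complex. In mouse embryonic stem cells without Dicer, which make no mature microRNAs, earlier work linked the miR-290 cluster to the de novo enzymes through Rbl2, a pocket protein that represses transcription and that the cluster targets.

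Mature microRNAs of the cluster are shown first, because their seeds define the sites searched for below. The set is not complete, and miR-292a-3p is named only. Letters are from RefSeq (GRCm38.p6), written 5′ to 3′, and capitals mark the seed, bases 2 to 8. The first 3 share a seed, and miR-291b-3p, miR-293-3p and miR-290a-5p each have another.
miR-291a-3p: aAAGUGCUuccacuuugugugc
miR-294-3p: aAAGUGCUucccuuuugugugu
miR-295-3p: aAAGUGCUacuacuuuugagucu
miR-291b-3p: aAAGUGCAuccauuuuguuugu
miR-293-3p: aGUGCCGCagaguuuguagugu
miR-290a-5p: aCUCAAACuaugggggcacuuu

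Matches to the shared seed were found in the longest annotated 3′ UTR of 5 of the 10 genes. Of the other seeds, that of miR-290a-5p (word GTTTGAG, held by 12.1% of all 3′ UTRs) matched 1 time in Dnmt3a, 2 times in Tet1 and 1 time in Tet2, and those of miR-291b-3p and miR-293-3p matched in 0 of the 10. The words searched on the transcript strand were AGCACTT, which pairs with bases 2 to 8, and GCACTTA, which pairs with bases 2 to 7 and ends in adenine. The word AGCACTTA is both together, and all of them contain the core GCACTT. Tet1 held 2 copies of AGCACTT, Tet2 held 1 and Tet3 held 3. Mbd2 held 1 copy of AGCACTTA, and Dnmt3a held 2 copies of the core alone.

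The sites of the TET genes and Dnmt3a are given with the bases around them (GRCm38, strand of the transcript, the match in capitals), because the values that follow can be read against them.
Tet1, chr10:62811878-62811900, minus strand: ttttaaaaAGCACTTtctacttt
Tet1, chr10:62805022-62805044, minus strand: atagttaaAGCACTTcatgacat
Tet2, chr3:133465907-133465929, minus strand: cttagaaaAGCACTTtgcctacc
Tet3, chr6:83367836-83367858, minus strand: tcttccccAGCACTTtgaagaaa
Tet3, chr6:83366204-83366226, minus strand: tttttttaAGCACTTttgcctag
Tet3, chr6:83363402-83363424, minus strand: atctacgcAGCACTTggtttatc
Dnmt3a, chr12:3909540-3909563, plus strand: catgtgctcGCACTTtgttccgct
Dnmt3a, chr12:3914230-3914253, plus strand: ttctcatggGCACTTtttcttgct

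Long 3′ UTRs hold such words often. Over 21018 genes with an annotated 3′ UTR, 17.7% held at least 1 of the 7-base words and 2.97% held AGCACTTA. The 3′ UTRs of Tet1 (7962 bases), Tet3 (5669 bases) and Tet2 (3058 bases) are longer than those of 99.3%, 97.5% and 87.1% of these genes. Among genes with a 3′ UTR of similar length (a ratio of at least 0.8 between the shorter and the longer), 67.2%, 57.7% and 37.5% held a 7-base word. The 3′ UTR of Mbd2 is short, with 480 bases, and of 2172 genes of about that length 6.45% held a 7-base word and 0.875% held AGCACTTA. Dnmt1, Uhrf1, Dnmt3b, Dnmt3l and Mbd3 held no copy of GCACTT. For comparison with a microRNA outside the cluster, the word TGGTGCT, which pairs with the seed of miR-29a-3p, occurred 5 times in Dnmt3a, 1 time in Dnmt3b, 7 times in Tet1, 5 times in Tet2 and 8 times in Tet3, and 13.1% of all 3′ UTRs held it. The related microRNA miR-17-5p also lies outside the cluster, and its word GCACTTT contains the core. That word occurred 2 times in Dnmt3a, 1 time in Tet1, 1 time in Tet2 and 2 times in Tet3. It was held by 11.8% of all 3′ UTRs. Both Dnmt3a sites printed above hold it, so the printed sites are not particular to the cluster. A match is a description of the annotated sequence and not evidence of a functional site. In the shortest annotated 3′ UTR only Tet2 and Tet3 kept a 7-base word. In Mbd2 that 3′ UTR has 457 bases and holds none, and counts per gene do not tell which 3′ end was used.

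**Figure D1:**
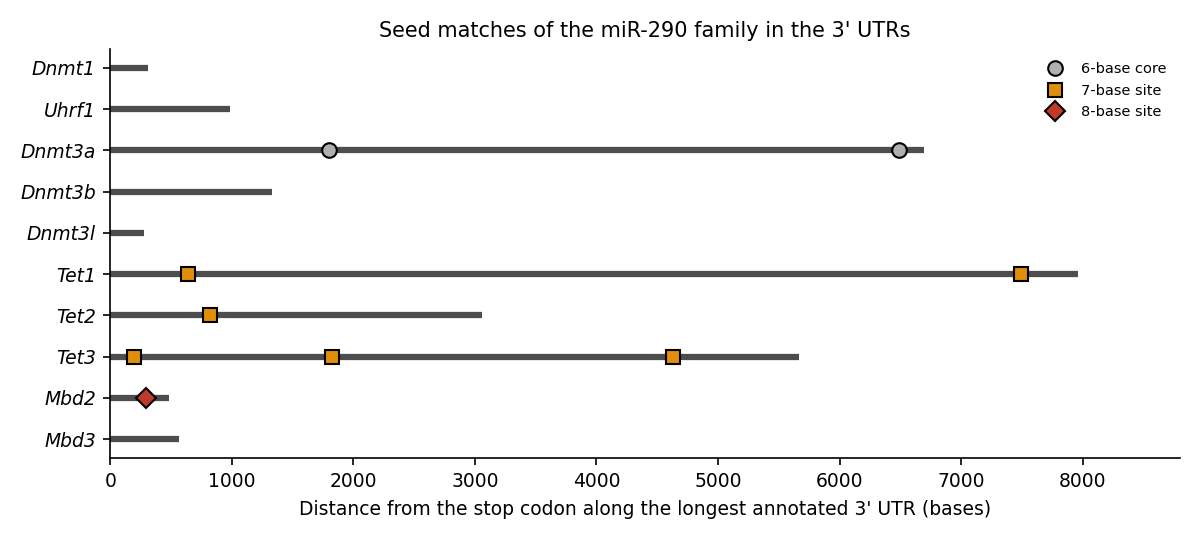
Position of each match to the shared seed along the longest annotated 3′ UTR of each gene, in bases from the stop codon; bars show the length of the 3′ UTR and symbols the kind of match. The 8-base site of Mbd2 lies in a 3′ UTR of 480 bases, and the 7-base sites lie in Tet1, Tet2 and Tet3.

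The libraries held between 9925557 and 12726123 counts, so that 3 counts correspond to 0.236 to 0.302 CPM (counts per 1000000), and the lowest count of any of the 10 genes in a library was 64. The plus-strand microRNA genes of the cluster together held 88 and 39 counts in WT and 0 in each KO library. These are poly(A) tags and not mature microRNAs. The stem cell markers Sox2, Nanog and Zfp42 were present in all libraries (at least 188 CPM), as was Pou5f1 (at least 31.5 CPM). Of 11 fibroblast markers 4 were at 0 in every library (Col3a1, Postn, Dcn and Fap) and 5 had enough counts to be tested; their values are given with the other markers. Levels below are CPM of the library total. Each transcript gives reads only near its 3′ end in this method, so CPM is not divided by transcript length, and levels are compared between groups and not between genes. In cultures of this kind fewer cells that express a gene and less of its RNA per cell cannot be told apart.

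Of the 10 genes, Dnmt3l and Dnmt3b were lower in KO and Mbd2 was higher by the quasi-likelihood test of edgeR (Benjamini-Hochberg adjustment over all 14427 genes, threshold 0.05). Over all genes tested 4.96% were called lower and 7.42% higher, 12.4% in all. The other 7 genes did not pass, and 6 of the 10 had an unadjusted p below 0.05, as did 28.2% of all genes tested. The median log2 fold change (KO over WT) of the 10 was -0.05, next to -0.01 over all genes tested. In 9 of the 10 genes the KO and WT libraries did not overlap, with KO above in 5 and below in 4. Over all genes the groups were apart in this way in 58.0% (29.2% above and 28.8% below).

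The number called depended on the libraries. Without KO library 1, 0 of the 10 were called higher and 1 lower, against 3.84% and 1.87% of all genes tested. Without KO library 2 the counts were again 0 and 1, against 3.64% and 2.09%. Without WT library 1, 2 were higher and 1 lower, against 8.69% and 6.21%, and without WT library 2, 1 was higher and 4 were lower, against 9.68% and 6.63%. With the replicate number as a block 0 were higher and 2 lower, against 4.41% and 2.56%. Dnmt3l was called lower in each of these fits.

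**Figure D2:**
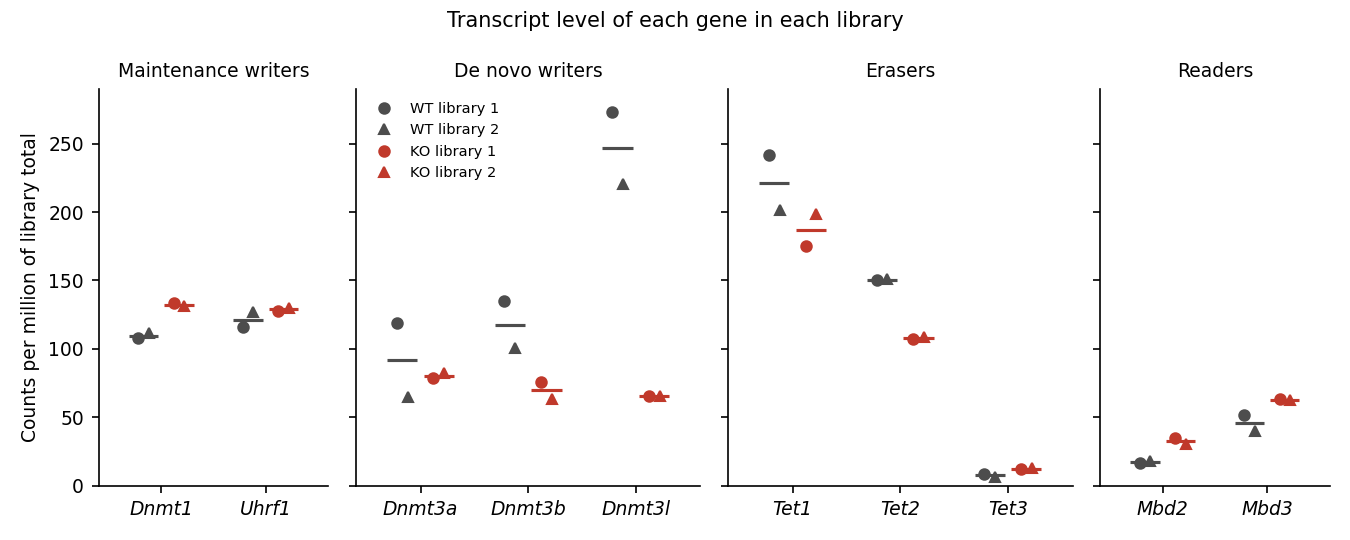
Level in CPM of the library total for each gene in each of the 4 libraries (circles, library 1; triangles, library 2), with the mean of each group as a line. The KO libraries of Dnmt3l lie at 65.5 and 65.3 CPM, below WT at 273 and 220 CPM, and the WT libraries of Dnmt3a lie on either side of KO.

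Neither maintenance gene passed the test. Dnmt1 (ENSMUSG00000004099, chromosome 9, 20907209 to 20959888) held 133 and 131 CPM in KO libraries 1 and 2, and 108 and 112 CPM in WT libraries 1 and 2. Both KO libraries were higher than both WT libraries. Its log2 fold change was 0.27 (SE 0.15, 95% interval -0.06 to 0.60) and did not pass (edgeR adjusted p = 0.266). Uhrf1 (ENSMUSG00000001228, chromosome 17) held 128 and 130 CPM in KO and 116 and 127 CPM in WT. KO library 1 and WT library 2 were almost level, and the log2 fold change was 0.09 (SE 0.15, 95% interval -0.24 to 0.42, edgeR adjusted p = 0.75). For both genes the interval leaves out a log2 change of 1 or more in either direction.

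Dnmt3l (ENSMUSG00000000730, chromosome 10, 78041947 to 78063622) fell most of the 10 genes. It held 65.5 and 65.3 CPM in KO (65.4 ± 0.125, SD, n = 2) and 273 and 220 CPM in WT (247 ± 37.4, n = 2). The KO libraries were nearly equal and the groups were far apart. The level in WT was 3.78-fold that in KO, a log2 fold change of -1.92 (SE 0.17, 95% interval -2.30 to -1.53, edgeR adjusted p = 0.000384). The call held with each library left out, between -2.08 and -1.73. A processed pseudogene on chromosome 2, Dnmt3l-ps1, held 0 counts in every library. The immune regulator gene Aire overlaps Dnmt3l on the opposite strand without covering its 3′ end, and held 52 and 29 counts in KO and 112 and 95 in WT.

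Dnmt3b (ENSMUSG00000027478, chromosome 2, 153649450 to 153687730), which encodes a de novo enzyme, was also lower. It held 75.7 and 63.5 CPM in KO (69.6 ± 8.61, SD, n = 2) and 135 and 101 CPM in WT (118 ± 23.8, n = 2). The groups did not overlap, but the WT libraries were further from each other than the KO libraries. The log2 fold change was -0.76 (SE 0.19, 95% interval -1.20 to -0.32, edgeR adjusted p = 0.0348). With KO library 1 left out the call was lost (-0.89, edgeR adjusted p = 0.08). The same held with KO library 2 left out (-0.64, adjusted p = 0.238) or WT library 1 left out (-0.52, adjusted p = 0.068), and the direction did not change.

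For Dnmt3a (ENSMUSG00000020661, chromosome 12, 3806007 to 3914443), which encodes the other de novo enzyme, the result turned on the WT libraries. It held 78.7 and 82.2 CPM in KO, and 119 CPM in WT library 1 but 64.9 CPM in WT library 2. The KO libraries lay between the WT libraries. The log2 fold change was -0.20 (SE 0.26, 95% interval -0.78 to 0.39, edgeR adjusted p = 0.675). It was 0.33 with WT library 1 left out (adjusted p = 0.242), and -0.58 with WT library 2 left out, which passed (adjusted p = 0.0255). WT library 1 was also the higher WT library for Dnmt3b, Dnmt3l, Tet1, Tet3 and Mbd3, with log2 ratios to WT library 2 of 0.87 for Dnmt3a and between 0.26 and 0.45 for the other 5.

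Among the erasers, Tet2 (ENSMUSG00000040943, chromosome 3) held 107 and 108 CPM in KO and 151 CPM in each WT library. The replicates were almost equal and the groups did not overlap. The log2 fold change was -0.48 (SE 0.15, 95% interval -0.81 to -0.15), with an unadjusted edgeR p of 0.00865 and an adjusted p of 0.0613, so that it did not pass over all genes. Without WT library 2 it passed (-0.50, adjusted p = 0.0409). Tet1 (ENSMUSG00000047146, chromosome 10) held 175 and 198 CPM in KO and 242 and 201 CPM in WT. KO library 2 and WT library 2 were close, and the log2 fold change was -0.25 (SE 0.16, 95% interval -0.61 to 0.12, edgeR adjusted p = 0.359). Tet3 (ENSMUSG00000034832, chromosome 6), the gene of the TET enzyme known for its role in the zygote, had the fewest counts of the 10. It held 12.3 and 12.8 CPM in KO (157 and 150 counts) and 8.80 and 6.45 CPM in WT (107 and 64 counts). Both KO libraries were higher, and the log2 fold change of 0.71 did not pass (SE 0.30, 95% interval 0.04 to 1.38, edgeR adjusted p = 0.153). The genes of the 3 enzymes all hold 7-base seed matches in the longest annotated 3′ UTR, and their log2 fold changes were 0.71 for Tet3 with 3 matches, -0.25 for Tet1 with 2 and -0.48 for Tet2 with 1. None of the 3 passed with all libraries, and a relation between matches and fold change was not tested.

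Among the readers, Mbd2 (ENSMUSG00000024513, chromosome 18), which has the 8-base site, held 34.8 and 30.3 CPM in KO (32.5 ± 3.22, SD, n = 2) and 16.7 and 18.1 CPM in WT (17.4 ± 1.02, n = 2). The groups were well apart, with a 1.87-fold higher level in KO and a log2 fold change of 0.90 (SE 0.21, 95% interval 0.43 to 1.38, edgeR adjusted p = 0.0239). With KO library 1 left out the call was lost (0.81, edgeR adjusted p = 0.192), as it was with KO library 2 left out (1.01, adjusted p = 0.0808) and with the replicate block (0.90, adjusted p = 0.0576). Mbd2 is known as a target of the related microRNAs miR-302 and miR-372 from work in human cells. Mbd3 (ENSMUSG00000035478, chromosome 10), which has no match to the core, held 63.3 and 62.5 CPM in KO and 52.0 and 39.7 CPM in WT. Both KO libraries were higher, and the log2 fold change of 0.45 did not pass (SE 0.19, 95% interval 0.02 to 0.89, edgeR adjusted p = 0.163). Without WT library 1 it was 0.68 and passed (adjusted p = 0.0282).

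**Figure D3:**
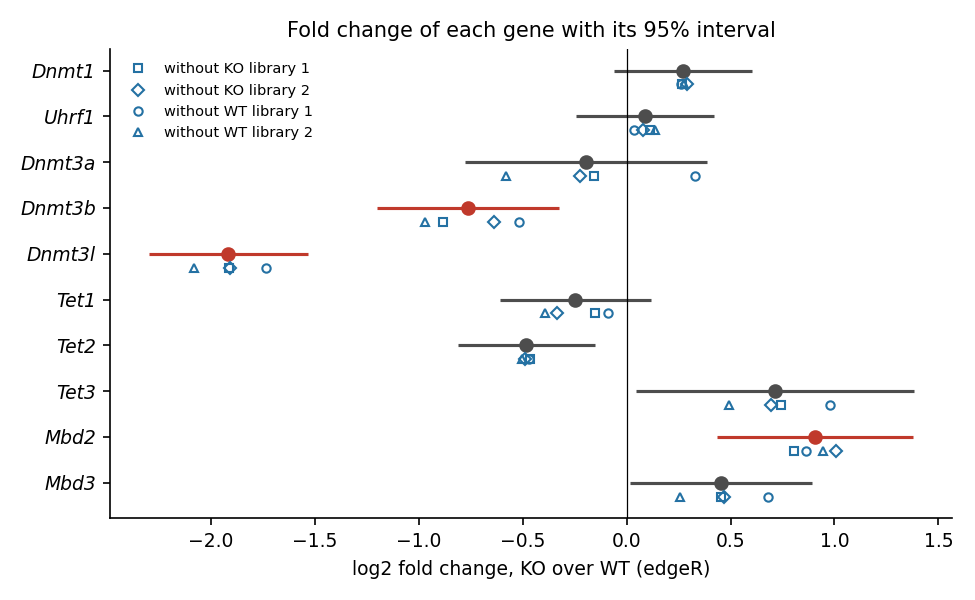
Log2 fold change (KO over WT) of each gene from edgeR, as a point with its 95% interval as a line (red, adjusted p below 0.05; grey, did not pass), and below it the value with each library left out. Dnmt3l stays between -2.08 and -1.73, and Dnmt3a lies at 0.33 without WT library 1 and at -0.58 without WT library 2.

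Ratios between these genes within a library do not depend on how libraries are scaled, and 8 were compared. An exact permutation test over 2 against 2 libraries cannot go below a two-sided p of 0.333, so the values are given as a description. The log2 ratio of Dnmt3l to Dnmt3a was 1.20 and 1.76 in WT and -0.26 and -0.33 in KO. The difference between the group means was -1.78. The log2 ratio of Dnmt3l to Dnmt3b was 1.02 and 1.13 in WT and -0.21 and 0.04 in KO, a difference of -1.16. Relative to the gene of either catalytic partner, Dnmt3l was lower in both KO libraries than in both WT libraries. Dnmt3a to Dnmt3b gave -0.18 and -0.64 in WT and 0.06 and 0.37 in KO, a difference of 0.62.

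In the TET family both other genes were lower relative to Tet3 in KO. Tet3, which both ratios share, held 64 to 157 counts in a library. Its own log2 fold change of 0.71 was larger in size than those of Tet2 (-0.48) and Tet1 (-0.25), and none of the 3 passed. The log2 ratio of Tet2 to Tet3 was 4.09 and 4.54 in WT and 3.11 and 3.08 in KO, a difference of -1.22. For Tet1 to Tet3 it was 4.77 and 4.95 in WT and 3.82 and 3.95 in KO, a difference of -0.98. Groups were apart in each, and the ratio of Tet1 to Tet2 differed by 0.24, with 0.68 and 0.42 in WT and 0.71 and 0.87 in KO. The log2 ratio of Mbd2 to Mbd3 was -1.64 and -1.13 in WT and -0.86 and -1.04 in KO, so that WT library 2 and KO library 2 were close. Dnmt1 to Uhrf1 differed by 0.18, with -0.10 and -0.19 in WT and 0.07 and 0.01 in KO. All 8 ratios had an exact permutation p of 0.333, raw and adjusted over the 8.

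**Figure D4:**
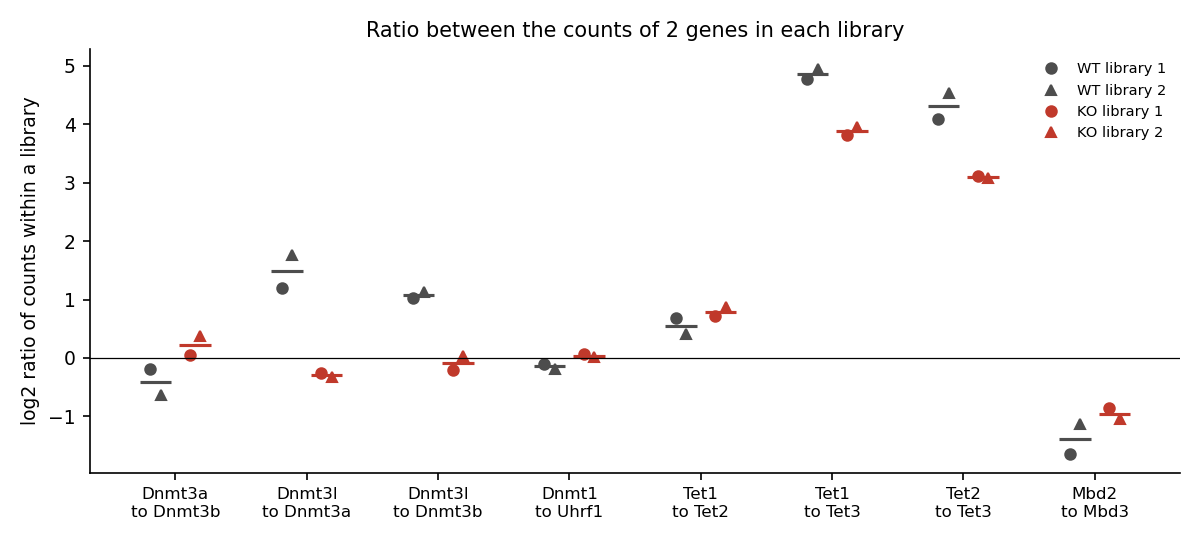
Log2 ratio of the counts of 2 genes within each library (circles, library 1; triangles, library 2), with the mean of each group as a line. The ratios of Dnmt3l to Dnmt3a and to Dnmt3b lie above 1 in WT and below 0.05 in KO, and the ratios of Tet1 and Tet2 to Tet3 are lower in KO.

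Partners of the writers were then counted from a list of 21 genes, of which 20 were tested, and 4 were lower and 1 was higher, with a median log2 fold change of -0.15. For this list and those that follow, the shares over all genes tested were 4.96% lower and 7.42% higher. Zfp57, which encodes a zinc finger protein that keeps methylation at imprinted regions, had 25.0 and 56.3 CPM in KO and 122 and 133 CPM in WT (-1.64, SE 0.31, edgeR adjusted p = 0.0116). KO library 2 held more of it than KO library 1, and the fold change was -1.17 without KO library 1 and -2.34 without KO library 2. Uhrf2, the paralog of Uhrf1, was lower (-0.84, SE 0.20), as were Cdca7l (-1.12, SE 0.26) and the DNA ligase gene Lig1 (-0.52, SE 0.14), the last named after its value was seen. Nsd1, which encodes a histone H3 lysine 36 methyltransferase whose mark recruits DNMT3A, was higher (0.78, SE 0.15). The calls of Cdca7l, Lig1 and Nsd1 were lost without KO library 1 (-1.14, -0.40 and 0.77), and those of Uhrf2, Cdca7l, Lig1 and Nsd1 without KO library 2 (-0.64, -1.09, -0.65 and 0.80). Without WT library 1 Cdca7l gave -0.85 and was lost, and without WT library 2 Lig1 gave -0.45 and was lost. Under the replicate block Uhrf2 (edgeR adjusted p = 0.0679) and Cdca7l (adjusted p = 0.0534) did not pass, and Zfp57, Lig1 and Nsd1 did. Dnmt3c, a rodent paralog of Dnmt3b, held 0 counts in every library.

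Of 22 tested genes that act in oxidation and base excision demethylation 3 were higher and 0 lower by edgeR (1 lower at an unadjusted p below 0.05, and 0 by DESeq2), with a median of -0.07. Gadd45a, a stress-induced gene that has been linked to demethylation, held 151 and 143 CPM in KO and 58.7 and 40.4 CPM in WT (1.57, SE 0.21, edgeR adjusted p = 0.0021). Hmces, which shields abasic sites, rose by 1.04 (SE 0.25), and Cxxc5, a CXXC protein gene linked to TET2, by 0.63 (SE 0.16). Gadd45a and Hmces also passed with the replicate block, and Cxxc5 did not (edgeR adjusted p = 0.0555). Cxxc5 lost its call without KO library 1 (0.53) and without KO library 2 (0.72). Idh2 (1.05) did not pass by edgeR (adjusted p = 0.0513). DESeq2 called it higher (adjusted p = 0.0045), as did edgeR with the replicate block (adjusted p = 0.0471). It held 71.6 CPM in WT library 1 and 164 CPM in WT library 2, and it passed without KO library 1 (1.12), without WT library 1 (0.58) and without WT library 2 (1.74).

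Among 15 other genes for proteins that bind methylated CpG or carry such a domain, 4 were higher and 2 lower, with a median of 0.04. Zbtb38, a zinc finger reader of methylated DNA, held 146 and 140 CPM in KO and 40.9 and 29.9 CPM in WT (2.01, SE 0.20, edgeR adjusted p = 0.000568), and its call held with each library left out. Wt1 was higher at a low level, with 4.16 and 8.07 CPM in KO and 1.07 and 0.403 CPM in WT. With KO library 2 left out its log2 fold change was 2.46 and did not pass. Zbtb33, the gene of the reader Kaiso (0.87, SE 0.23), and Mbd6 (0.72, SE 0.18) were named after their values were seen, and both lost their calls without KO library 1 (0.83 and 0.71) or KO library 2 (0.93 and 0.74), and Zbtb33 without WT library 2 (0.73). Klf4, a pluripotency factor that can bind methylated DNA, was lower (-1.59, SE 0.21), and Zfp57 is also on this list. Zbtb38 and Klf4 passed with the replicate block. Wt1 (edgeR adjusted p = 0.0529), Zbtb33 (adjusted p = 0.0714) and Mbd6 (adjusted p = 0.0639) did not. In the NuRD complex, with which both MBD proteins work, 1 of 15 tested genes was higher and 0 were lower by edgeR (0 lower at an unadjusted p below 0.05 and by DESeq2), with a median of 0.18. That gene was Mta3 (0.67, SE 0.16), which did not pass without KO library 1 (0.72) or KO library 2 (0.62). Mta3 also did not pass with the replicate block (edgeR adjusted p = 0.0614). Chd3 (0.87, adjusted p = 0.0507), Mta1 (0.53) and Zmynd8 (0.40) did not pass by edgeR. DESeq2 called 2 genes of the list higher, with Chd3 among them (adjusted p = 0.044). Without WT library 2 Chd3 (1.04) and Zmynd8 (0.65) passed, and without WT library 1 Mta1 did (0.69).

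Rbl2, the repressor named in the earlier work on cells without Dicer, held 12.5 and 15.3 CPM in KO and 13.8 and 9.67 CPM in WT. These are RNA counts and do not measure its protein. The groups overlapped, and the log2 fold change was 0.24 (SE 0.29, 95% interval -0.42 to 0.89, edgeR adjusted p = 0.648). Of 12 tested genes of its list 0 passed in either direction by edgeR, 0 by DESeq2 and 0 at an unadjusted p below 0.05. The smallest p-values belonged to Lin9 (0.40), Rb1 (0.37), E2f6 (-0.33) and E2f4 (-0.21). In the supply of methyl groups, 3 of 22 tested genes were higher and 1 lower, with a median of 0.13. The mitochondrial folate genes Shmt2 (1.39, SE 0.17) and Mthfd2 (1.26, SE 0.16) rose and kept their calls with each library left out. The glycine cleavage gene Gldc was lower (-0.73, SE 0.20), and it lost its call without KO library 1 (-0.95) and without KO library 2 (-0.52). Gldc did not pass with the replicate block either (edgeR adjusted p = 0.0799), while Shmt2 and Mthfd2 did.

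Of 20 tested germline genes, a class that DNA methylation is known to keep silent in embryonic cells, 8 were lower and 2 higher, with a median of -0.95, next to -0.01 over all genes. Dazl, a germ cell RNA-binding protein gene, held 15.3 and 15.8 CPM in KO and 38.0 and 70.6 CPM in WT. Tdrkh, of the piRNA pathway, held 1.41 and 1.95 CPM in KO and 6.99 and 5.74 CPM in WT. With KO library 1 left out 1 gene of the list was called lower, and with KO library 2 left out 5 were. The 2 higher genes were D1Pas1 (1.89, SE 0.41) and Rpl10l (0.93, SE 0.22). Each of these 2 has a widely expressed close relative, so both values are uncertain. Sharing of reads was not tested for any gene of the list. Under the replicate block D1Pas1 (edgeR adjusted p = 0.0533), Rpl10l (adjusted p = 0.0534) and Tdrkh (adjusted p = 0.0573) did not pass. The summed level of the list was 458 to 532 CPM in KO and 449 to 455 CPM in WT. Of this, Rpl10l held 297 and 329 CPM in KO and 203 and 125 CPM in WT.

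**Figure D5:**
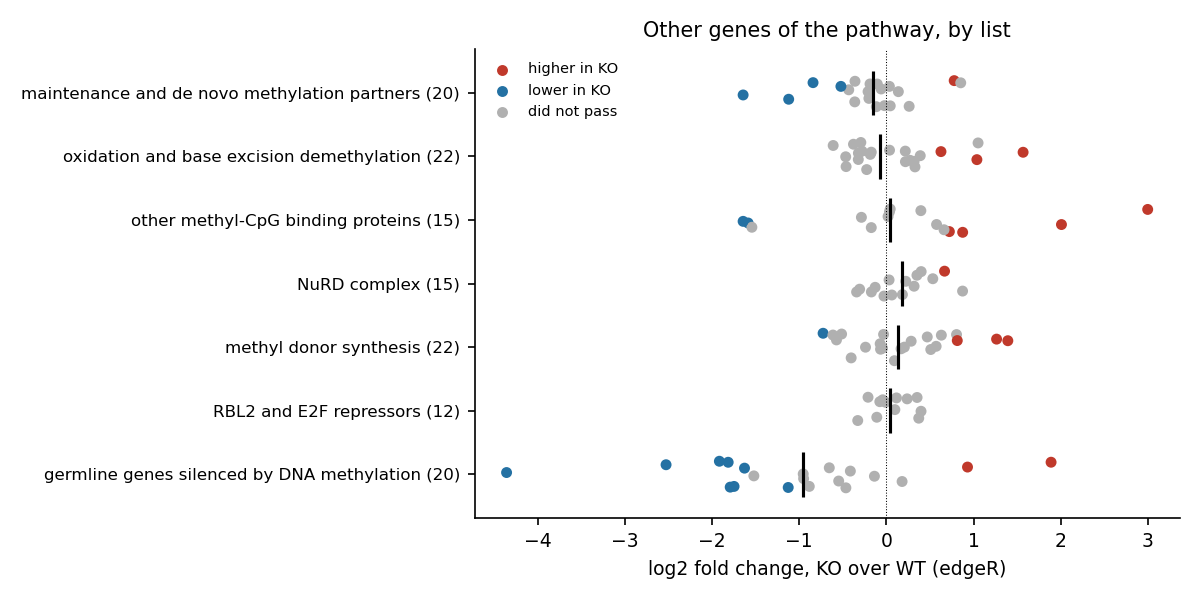
Log2 fold change (KO over WT) of each tested gene of 7 pathway lists (red, higher; blue, lower; grey, did not pass), with the number tested in brackets and the median of each list as a line. Zbtb38 and Wt1 lie furthest to the right among the methyl-CpG binding proteins, and the germline genes have a median of -0.95.

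Markers of other states moved in the same libraries, and their part in these results was not tested. Of 17 primitive endoderm markers 11 were lower and 1 was higher (Serpinh1, 1.52), and 7 were lower with KO library 2 left out. Col4a1 fell from 60.2 and 63.3 CPM in WT to 3.69 and 4.25 CPM in KO, and the summed level of the list, in which Sparc and Serpinh1 are abundant, was 874 to 1164 CPM in WT and 865 to 1049 CPM in KO. Of 11 tested formative and primed pluripotency markers, a state in which Dnmt3a and Dnmt3b are known to be high, 3 were higher and 0 lower by edgeR (2 lower at an unadjusted p below 0.05, and 1 by DESeq2, which was Pou3f1), with a summed level of 480 to 621 CPM in KO and 470 to 593 CPM in WT. The 3 were Lef1 (3.58), Sall2 (1.77) and Zic2 (2.07), each under 10 CPM in every library, and Pou3f1 (-1.04) did not pass. Lef1 passed with the replicate block, and Sall2 (edgeR adjusted p = 0.0577) and Zic2 (adjusted p = 0.101) did not. With KO library 2 left out Zic2 (1.52) and Sall2 (1.53) lost their calls, and with WT library 2 left out Zic2 did (1.67). Of 15 stem cell markers 1 was higher (Klf2, 0.94) and 3 were lower (Klf4, Utf1 with -0.91, lost without KO library 1 at -0.77, and Lin28a with -0.84, lost without KO library 2 at -0.64), with summed levels of 5669 to 5880 CPM in KO and 5464 to 5816 CPM in WT. Among 5 tested fibroblast genes 3 were called lower by edgeR, which were Thy1 (125 and 239 counts in KO, 326 and 498 in WT), Col5a1 (67 and 74, 155 and 120) and Col1a1 (5 and 4, 21 and 17), and the list summed to 18.5 to 29.7 CPM in KO and 45.5 to 69.4 CPM in WT. DESeq2 did not call Col1a1 (adjusted p = 0.186). Thy1 passed with the replicate block, and Col5a1 (edgeR adjusted p = 0.0807) and Col1a1 (adjusted p = 0.102) did not. With KO library 1 left out 0 of these genes were called, and with any other library left out 1 was. Of 9 tested trophoblast markers 1 was higher (Tfap2c, 1.78) and 1 lower (Ascl2, -1.71), with a median log2 fold change of -0.12. The summed levels were 297 to 431 CPM in KO and 128 to 152 CPM in WT. Tfap2c alone held 379 and 230 CPM in KO and 89.7 and 88.1 CPM in WT. It passed with the replicate block, and Ascl2 did not (edgeR adjusted p = 0.0621). Ascl2 lost its call with KO library 1 (-1.56) or KO library 2 (-1.86) left out. Of 5 tested markers of the 2-cell-like state 3 were higher by edgeR and 1 by DESeq2, with summed levels of 10.7 to 21.8 CPM in KO and 2.82 to 4.77 CPM in WT, and 0 to 5 of them were called higher with 1 library left out (0 without KO library 2, 5 without WT library 1). More primitive endoderm genes are named here outside the rule for named genes. Gata6 fell from 15.9 and 12.4 CPM in WT to 1.02 and 1.79 CPM in KO, and Sox17 was also lower (-2.69). Gata4 (-0.65), Sox7 (-0.87), Foxa2 (-1.05) and Lamc1 (0.42) did not pass.

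The pathway genes whose pattern over the 4 libraries lay nearest to the 2 lower genes, by the root mean square difference of centred log2 CPM among 123 candidates, were Tdrkh (0.177) and Tex101 (0.251) for Dnmt3l, and Taf7l (0.123) and Sycp3 (0.175) for Dnmt3b. Tet2 lay nearest to Hells (0.0342) and then to Smug1 (0.0628). Hells, which encodes a chromatin remodeller needed for methylation, did not pass (-0.43, edgeR adjusted p = 0.0599). It passed with no low-count filter (-0.43, edgeR adjusted p = 0.0353). Smug1 did not pass (-0.38, edgeR adjusted p = 0.307). The nearest genes of the other members are not listed. With 4 libraries such likeness is a description of these samples. It was computed with 0.5 CPM added, which pulls in the change of genes near the floor: Tex101 held 1 and 0 counts in KO and 12 and 11 in WT, so that its distance from Dnmt3l rests on that addition.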

How the data were processed

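Per the labels' protocols, Trizol RNA was sequenced from poly(A) 3′ ends (QuantSeq 3′ FWD). The deposited values are raw counts per gene, not normalized by the authors. Submitters' processing notes name Trim Galore and GRCm38. Aligner, counter, strandedness and annotation: not given in the sources used here, so reads of overlapping genes and paralogs could be shared.

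Genes were named with GENCODE vM21, which lacked 181 identifiers holding 0.0025% of counts. Groups were compared with edgeR 4.0.16 (R 4.3.3; quasi-likelihood F test, two-sided, TMM, filterByExpr, Benjamini-Hochberg over 14427 genes, threshold 0.05, biological coefficient of variation 0.198), tested on simulated data. SE is the log2 fold change over the square root of F. Ratios had 0.5 counts added and were tested with scipy 1.17.1. Seed matches were sought in the longest annotated 3′ UTR. Counting without molecular identifiers leaves copies made in amplification among the counts. Alternatives were DESeq2 1.42.0, other scalings and filters, the replicate block, each library left out, chromosome medians and the shortest 3′ UTR. Named genes were all 10 members, up to 4 genes with the smallest p of each list, Rbl2, the locus and the 2 nearest pathway genes of a member; 1 gene that this rule names is not reported here. Members and lists were chosen with earlier results of these data known. The neighbours of the called genes were looked at after their values were seen.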

Additional observations from a re-analysis of the deposited data

How the results depend on the processing

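Over all alternatives, 100 results for the 10 genes kept their direction and, where tested, their side of the threshold. These 100 include the results with the chromosome median subtracted, which have no p-value and moved by no more than their SE. The log2 fold change lost the call in 6 results, gained it in 3 and changed sign in 1. The sign change was Dnmt3a without WT library 1 (0.33, and -0.58 without WT library 2), and its cause was not tested. Genes higher in KO were 1071 and genes lower 715. With a mean of at least 10 CPM they were 636 and 391, with no low-count filter the lower genes were 1193, and with 1 library left out they were 556 to 1477 and 285 to 1011. Of the 10 genes, the number higher was 1 and lay between 0 and 2 with 1 library left out, and the number lower was 2 and lay between 1 and 4. Replicate numbers share only a number: the differences between library 1 and library 2 of KO and WT had a correlation of -0.0681 over genes. With the replicate block 636 genes were higher, 369 lower, and 0 of the 10 were higher. With the shortest 3′ UTR 2 of the 10 held a 7-base word, against 4 with the longest.

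With 4 libraries, changes of the size seen for Dnmt3b, Tet2 and Mbd2 pass or fail with 1 library, and of the 3 called genes only Dnmt3l kept its call in every alternative that gives a test.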

Other observations

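Genes next to the called genes were looked at after the values were seen, within 250 kilobases on either side. Around Dnmt3l 9 other genes were tested, and 4 were lower in KO and 0 higher, against 4.96% and 7.42% of all genes tested. Their median log2 fold change was -0.75, next to -0.03 over the 686 tested genes of chromosome 10. Icosl, which encodes a ligand of a T cell costimulatory receptor and lies 5680 bases from Dnmt3l, held 32 and 38 counts in KO and 136 and 146 in WT (-2.16, SE 0.34, edgeR adjusted p = 0.005). Aire gave -1.51 (SE 0.37), the acyltransferase gene Agpat3 -1.27 (SE 0.23) and the ribosome biogenesis gene Pwp2 -0.75 (SE 0.19). Pfkl, a glycolytic gene 31864 bases away (-0.43), Lrrc3 (-1.95) and Trappc10 (-0.14) did not pass, and 1810043G02Rik (0.62) and D10Jhu81e (0.14) were on the higher side and did not pass. With 1 library left out 2 to 4 of the 9 were called lower, and the median lay between -0.90 and -0.66. Aire lost its call without KO library 2 (-1.19), Agpat3 without KO library 1 (-1.16), and Pwp2 lost its call with KO library 1 (-0.77), with KO library 2 (-0.71) and with WT library 1 (-0.58) left out. With the replicate block 2 were called.

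Around Dnmt3b 4 genes were tested and around Mbd2 3, and 0 of them were called in either direction by edgeR or by DESeq2, or had an unadjusted p below 0.05.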
